A study of Homo sapiens with 48 samples.

Results

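The measurements concerned the RNA level of 11947 protein-coding genes in SW480 cells, an APC-mutant human colorectal adenocarcinoma line, in which the delta subunit of eIF2B (gene EIF2B4) was knocked down. The comparison used 16 of the 48 libraries of the series, namely every total RNA library of the lines shCTRL and shEIF2B4. Both lines carried a doxycycline-inducible short hairpin RNA (shRNA), directed against EIF2B4 in shEIF2B4 and against no human gene in shCTRL, so each line held 1 hairpin and the result for EIF2B4 rested on 1 sequence. Each line was grown for 5 days with DMSO (-DOX) or with 1 µg/ml doxycycline (+DOX), giving shCTRL -DOX, shCTRL +DOX, shEIF2B4 -DOX and shEIF2B4 +DOX with 4 libraries each. The experiment was done 4 times, each in a week of its own, and the replicate number of a library was read as its week, which the labels do not state. RNA came from cleared, non-denatured lysates and was depleted of ribosomal RNA, so it was cytoplasmic RNA and not RNA from whole cells or nuclei.

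Per gene, the response was the change from -DOX to +DOX in shEIF2B4 minus the same change in shCTRL, with the week as a block. It therefore asks which mRNA levels moved when the EIF2B4 hairpin was induced beyond what doxycycline and a non-targeting hairpin did. The values were regularised log2 values as deposited, which pull the differences of weakly expressed genes towards 0, and they are not divided by gene length. All levels and responses below are on that scale, a response is quoted with its standard error (SE), and a gene was called where limma's moderated test gave a Benjamini-Hochberg adjusted p under 0.1 over all 11947 genes.

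eIF2B is the exchange factor that reloads the initiation factor eIF2 with GTP after each round of translation initiation. When stress kinases phosphorylate eIF2, the phosphorylated form holds eIF2B in an inactive state, general initiation falls, and a small set of mRNAs with upstream open reading frames is translated better. The best known of these encodes ATF4, a bZIP transcription factor that drives genes for amino acid synthesis, amino acid uptake and tRNA charging, together with the further factors CHOP (DDIT3) and TRIB3. This program, the integrated stress response, can also be entered by lowering eIF2B itself. The delta subunit belongs to the regulatory core of the complex, next to the alpha subunit (EIF2B1) and the beta subunit (EIF2B2), while gamma (EIF2B3) and epsilon (EIF2B5) form its catalytic part.

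EIF2B4 itself, at chr2:27364352-27370486 on the minus strand (GRCh38), was the first gene examined. Its level in weeks 1 to 4 was 7.19, 7.41, 7.56 and 7.59 in shCTRL -DOX, and 7.38, 7.24, 7.29 and 7.49 in shCTRL +DOX. In shEIF2B4 it was 6.88, 7.20, 7.42 and 7.24 without doxycycline, and 6.64, 6.68, 6.47 and 6.66 with it. All 4 induced shEIF2B4 libraries lay below the other 12. The uninduced shEIF2B4 libraries overlapped with the shCTRL ones as groups, but in each week shEIF2B4 -DOX was below shCTRL -DOX. With +DOX libraries only, shEIF2B4 minus shCTRL was -0.74, which also holds this difference between the uninduced lines. The response was -0.49 (SE 0.14, adjusted p = 0.0634 in limma), it was negative in every week (-0.43, -0.35, -0.68 and -0.48), and it combined a change of -0.57 in shEIF2B4 with one of -0.09 in shCTRL. The call was lost without the week as a block (adjusted p = 0.129), without week 2 (0.169), without week 3 (0.161) and without week 4 (0.262), while the direction was the same in each of these fits. The other 4 subunits were not called, with responses of 0.01 for EIF2B1, -0.07 for EIF2B2, 0.01 for EIF2B3 and -0.17 for EIF2B5.

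Responses of cell type markers were looked up, and such responses do not check the identity of the cells. Of 20 markers of colorectal epithelium, 7 were in the table, and 2 of them, the adhesion proteins CDH1 (0.56) and EPCAM (0.44), were called higher, EPCAM only narrowly (adjusted p = 0.0997) and not without the block. The median of the 7 was -0.03, with 3 above 0 and 4 below, and the lowest were the keratins KRT18 (-0.24) and KRT19 (-0.25), which were not called. Of 17 markers of stromal, endothelial and immune cells, 2 were in the table, CD68 and ACTA2, and neither was called (0.01 and -0.22). The 16 libraries had column means between 7.76 and 7.82, with all 8 shEIF2B4 libraries (7.76 to 7.78) below all 8 shCTRL libraries (7.80 to 7.82). The root mean square deviation of a library from its group mean ran from 0.0814 to 0.184, and its highest value was that of shEIF2B4 -DOX in week 3.

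In total, 645 of 11947 genes were called (5.40%), of which 452 were higher (3.78%) and 193 lower (1.62%). Of these 645, 70.1% were higher, and 59.4% were higher when each library was centred on its median, a setting with 643 calls. Without the week as a block, 349 genes were called, and leaving out 1 week gave between 217 (without week 4) and 496 (without week 1) calls, with 243 without week 2 and 372 without week 3. At an unadjusted p under 0.05 there were 2057 genes. Rises were larger than falls, with a median response of 0.48 for the genes called higher and -0.41 for the genes called lower, against 0.0018 over all genes. A response above 1 was found for 36 genes and one under -1 for 1 gene, and above 0.5 or under -0.5 the counts were 204 and 33. The sign of the response was the same in all 4 weeks for 635 of the called genes and in 3 weeks for the other 10. By week, the median response of the genes called higher was 0.44, 0.48, 0.63 and 0.44, and that of the genes called lower was -0.36, -0.39, -0.54 and -0.38, so week 3 had the largest values in both directions. In 331 of the 452 genes called higher, every shEIF2B4 +DOX library lay above the other 12 libraries, which was the case for 592 of all genes (4.96%). In 109 of the 193 genes called lower, every one lay below, which was the case for 501 of all genes (4.19%). The counts of signs and of libraries standing apart use the same values that called these genes. They describe the calls and carry no test of their own.

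**Figure D1:**
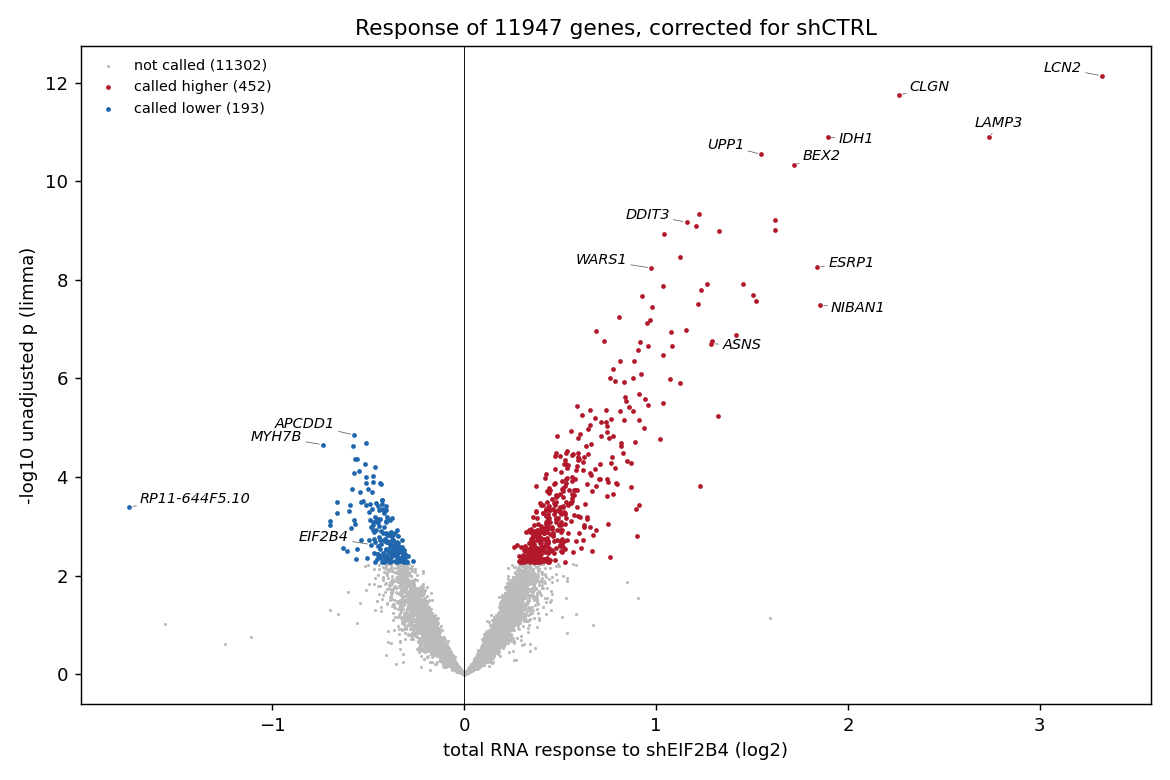
Response in total RNA (x axis, log2 scale) against the unadjusted p of limma (y axis, -log10) for 11947 genes, with 452 called higher in red, 193 called lower in blue and the others in grey. LCN2, LAMP3 and CLGN lie farthest to the right, and 1 called gene, RP11-644F5.10, lies left of -1.

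The 12 largest rises included genes of unlike function. LCN2 encodes lipocalin 2, a secreted protein that binds bacterial siderophores. Its level was 5.70, 5.72, 5.89 and 5.69 in shCTRL -DOX, 5.68, 6.43, 6.38 and 5.86 in shCTRL +DOX, 6.03, 5.92, 5.62 and 5.74 in shEIF2B4 -DOX, and 9.36, 9.33, 9.63 and 9.62 in shEIF2B4 +DOX. The induced shEIF2B4 libraries stood more than 2 log2 units above any other library, and the response was 3.32 (SE 0.19, adjusted p = 8.76e-09), or 10.0-fold on this scale. LAMP3, a lysosomal membrane protein first described in dendritic cells, had 7.29, 7.07, 6.89 and 6.90 in shCTRL -DOX, 7.26, 7.38, 7.64 and 7.34 in shCTRL +DOX, 7.42, 7.03, 6.67 and 6.77 in shEIF2B4 -DOX, and 9.90, 10.08, 10.22 and 10.09 in shEIF2B4 +DOX. Again the induced libraries did not overlap with the rest (response 2.74, SE 0.19, adjusted p = 3.88e-08). CLGN, which encodes calmegin, a chaperone of the endoplasmic reticulum best known from the testis, rose by 2.26 (SE 0.14), from 5.55 to 6.16 over the 4 shEIF2B4 -DOX libraries to 8.36 to 8.61 over the 4 shEIF2B4 +DOX libraries, with shCTRL between 5.64 and 6.31.

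IDH1, the cytosolic isocitrate dehydrogenase that makes NADPH, was at 9.92, 10.05, 9.65 and 9.54 in shEIF2B4 -DOX and at 11.70, 11.85, 11.85 and 11.81 in shEIF2B4 +DOX. In shCTRL it was at 10.13, 10.08, 9.65 and 9.90 without and at 10.12, 10.08, 9.93 and 10.10 with doxycycline. The 3 groups other than shEIF2B4 +DOX overlapped with each other, and the response was 1.89 (SE 0.13, adjusted p = 3.88e-08). NIBAN1, a cytoplasmic protein induced by many stresses, rose by 1.85 (SE 0.20), and here shCTRL also moved, by 0.51 (adjusted p = 0.066), with 7.13 to 7.63 in shCTRL +DOX against 6.43 to 7.03 in shCTRL -DOX. ESRP1, a splicing regulator of epithelial cells, rose by 1.84 (SE 0.18) to between 8.70 and 9.01, with 7.07 as the highest value in any other library. BEX2, a small signalling adaptor, rose by 1.72 (SE 0.13) to between 8.11 and 8.33, with 6.72 as the highest value elsewhere.

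The remaining 5 of these 12 had responses between 1.50 and 1.62. They were the anion exchanger SLC26A4 (pendrin, 1.62), the secreted protease inhibitor SLPI (1.62), the uridine phosphorylase UPP1 (1.55), the thioredoxin-binding protein TXNIP (1.52) and the peptide hormone precursor SPX (spexin, 1.50). Each of the 12 was called in every alternative fit that included it.

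**Figure D2:**
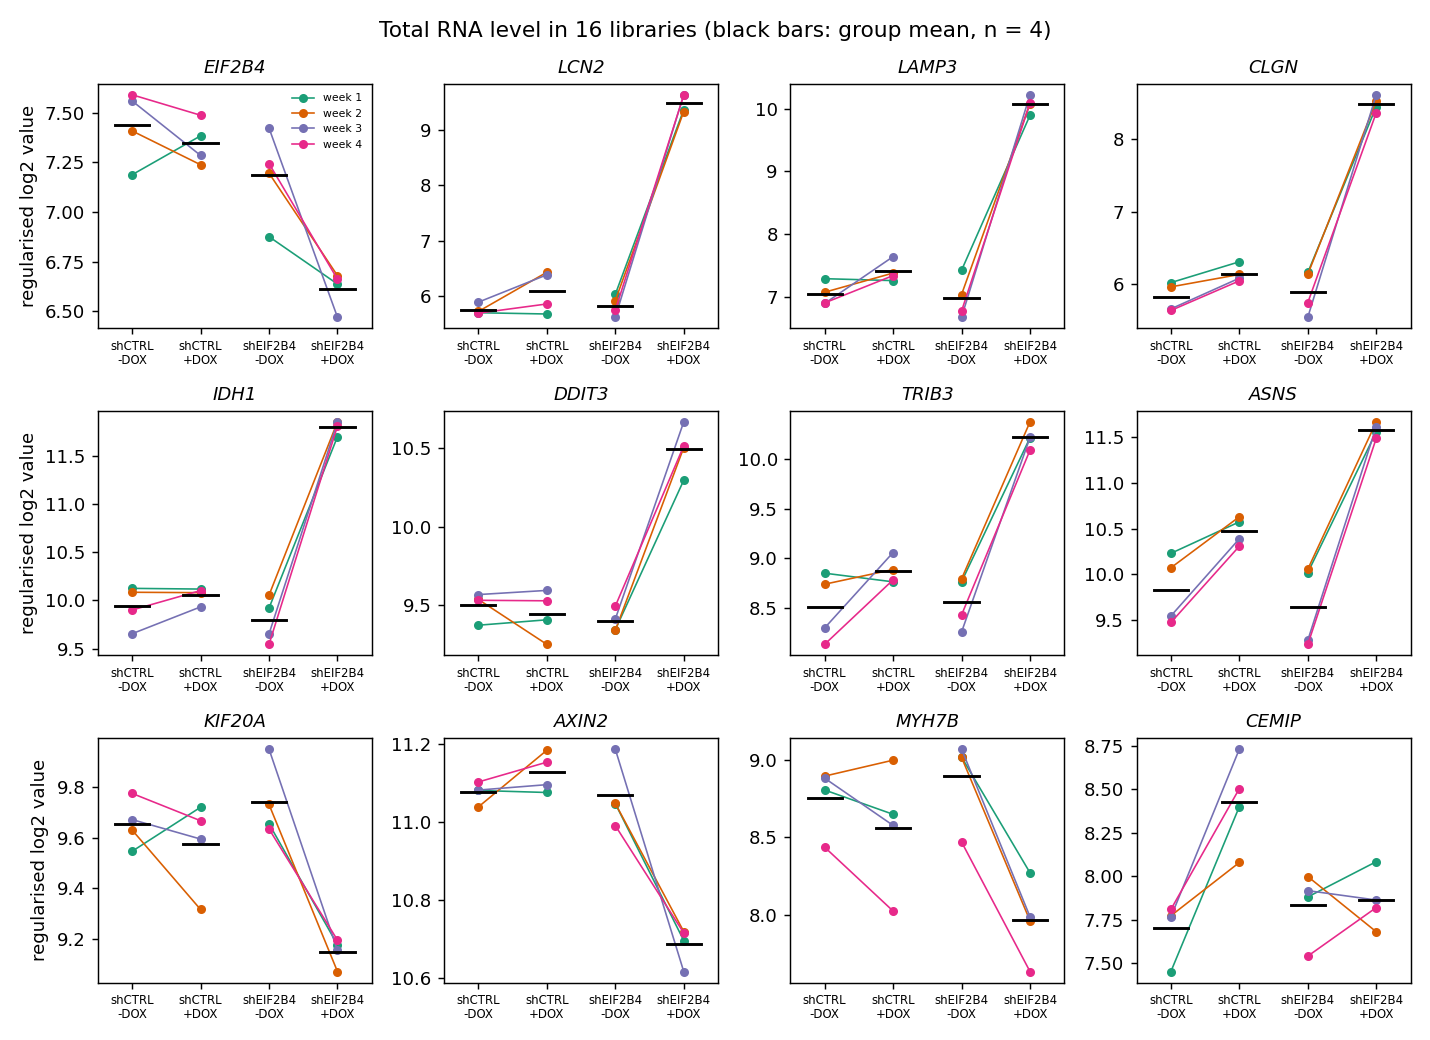
Regularised log2 level of 12 genes (y axis, own range for each gene) in the 16 libraries, grouped by line and treatment (x axis), with 1 colour per week, lines joining the libraries of a week and black bars for group means (n = 4). The 4 shEIF2B4 +DOX libraries lie above the other 12 for LCN2, LAMP3, CLGN, IDH1, DDIT3, TRIB3 and ASNS and below them for EIF2B4, KIF20A and AXIN2, whereas CEMIP changed in shCTRL.

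Genes of the integrated stress response were taken in the order of their roles, from lists that were assembled with earlier results of these data known. Of 14 stress-related bZIP factors together with the pseudokinase TRIB3, 5 were higher (35.7%, against 3.78% of all genes) and 0 lower, with a median response of 0.26. TRIB3, which binds ATF4 and restrains its activity, had 8.85, 8.74, 8.30 and 8.14 in shCTRL -DOX, 8.77, 8.89, 9.06 and 8.79 in shCTRL +DOX, 8.77, 8.80, 8.26 and 8.43 in shEIF2B4 -DOX, and 10.21, 10.37, 10.21 and 10.09 in shEIF2B4 +DOX. Only the last group stood apart, and TRIB3 rose by 1.29 (SE 0.16, adjusted p = 5.94e-05). DDIT3, which encodes CHOP, was between 9.25 and 9.59 in the 12 other libraries and at 10.30, 10.50, 10.67 and 10.51 in shEIF2B4 +DOX, a response of 1.16 (SE 0.10, adjusted p = 9.02e-07). CEBPG, a bZIP partner of ATF4, was at 11.17, 11.12, 11.11 and 11.07 in shEIF2B4 +DOX, above a highest value of 10.47 elsewhere, and rose by 0.74 (SE 0.12). CEBPB rose by 0.68 (SE 0.13) and ATF5 by 0.48 (SE 0.13), the latter from changes of 0.22 in shEIF2B4 and -0.26 in shCTRL and not called without the block.

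The mRNA of ATF4 itself, looked up after the list had been counted, was not called in total RNA (response 0.09, SE 0.09, adjusted p = 0.68). Of 23 measured effectors downstream of ATF4 and CHOP, 10 were higher (43.5%, against 3.78% of all genes) and 0 lower. The median response was 0.42, with 21 of the 23 above 0. Besides NIBAN1 and TXNIP, these included INHBE, an activin subunit (0.91, SE 0.13), and GDF15, a secreted cytokine of stressed cells (0.91, SE 0.21, not called without week 4). SESN2 (0.78) and CHAC1 (0.50), a regulator of mTORC1 and an enzyme that degrades glutathione, were called as well and are named here after their values were seen. Among eIF2, its kinases and the cofactors of its phosphatase, 1 of 11 genes was called. This was PPP1R15A (GADD34), the inducible cofactor that brings phosphatase to eIF2, with 7.56, 7.69, 7.96 and 7.68 in shEIF2B4 -DOX and 8.00, 8.49, 8.28 and 8.22 in shEIF2B4 +DOX. All 4 of the latter lay above the 7.27 to 7.83 of shCTRL, the response was 0.64 (SE 0.16, adjusted p = 0.0296), and the call was lost without week 2 and without week 4. The kinase gene EIF2AK1 had -0.25 and was not called.

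Genes of amino acid supply were split between called and not called members. Of 24 measured genes for amino acid and one-carbon synthesis, 6 were higher (25%, against 3.78% of all genes) and 0 lower, with a median of 0.09. ASNS, the asparagine synthetase, had 10.23, 10.07, 9.55 and 9.47 in shCTRL -DOX and 10.57, 10.63, 10.39 and 10.31 in shCTRL +DOX. In shEIF2B4 it went from 10.02, 10.06, 9.28 and 9.24 to 11.56, 11.66, 11.61 and 11.49. The induced shEIF2B4 libraries were above all others, the uninduced libraries of weeks 3 and 4 were lower than those of weeks 1 and 2 in both lines, and shCTRL also rose, by 0.64 (adjusted p = 0.014). After this correction ASNS rose by 1.29 (SE 0.16, adjusted p = 6.39e-05). ASS1, which makes argininosuccinate, rose by 0.91 (SE 0.11), and the mitochondrial one-carbon enzymes SHMT2 and MTHFD2 rose by 0.56 (SE 0.12) and 0.52 (SE 0.12). For this list the count was 4 without the block and 2 without week 4.

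Of 23 amino acid transporters, 4 were higher and 1 was lower (21.7% called, against 5.40% of all genes), and the median was 0.00. The 4 were the cystine importer SLC7A11 (0.90, SE 0.24, adjusted p = 0.0504), the glycine transporter SLC6A9 (0.71, SE 0.12), the neutral amino acid exchanger SLC1A4 (0.53, SE 0.12) and the glutamine importer SLC38A2 (0.52, SE 0.17, adjusted p = 0.0992). Of these 4, SLC6A9 alone was called whichever week was left out, and without week 4 the list had 1 higher gene. The transporter that fell, SLC1A3 (-0.49), takes up glutamate and aspartate. Of 20 cytosolic aminoacyl-tRNA synthetases, which charge tRNAs, 5 were higher (25%, against 3.78% of all genes) and 0 lower, and the median was 0.23. WARS1, the tryptophan enzyme, went from 9.26, 9.44, 9.49 and 9.21 to 10.53, 10.54, 10.69 and 10.59 in shEIF2B4 and from 9.41, 9.44, 9.50 and 9.33 to 9.48, 9.67, 9.92 and 9.64 in shCTRL. Its induced shEIF2B4 values did not overlap with any other group, and it rose by 0.97 (SE 0.10, adjusted p = 4.3e-06). GARS1 rose by 0.69 (SE 0.18), IARS1 by 0.65 (SE 0.11) and TARS1 by 0.42 (SE 0.11), and of these 3 IARS1 alone was called whichever week was left out. The list had 3 higher genes without week 1, 3 without week 2 and 2 without week 4.

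A number of these genes are known to carry C/EBP-ATF response elements (CAREs), sites where ATF4 binds together with a C/EBP factor. The letters TGATGNAAN were searched on both strands in RefSeq promoter windows (GRCh38.p14, 250 bases before to 50 bases after each annotated start). The 8 windows below are shown because they belong to called members of the gene lists and hold the letters before the annotated start, 6 from genes called higher and the last 2 from genes called lower, and the capitals mark the match, which reads NTTNCATCA where it lies on the opposite strand of the gene.
ASNS, chr7:97872458-97872486: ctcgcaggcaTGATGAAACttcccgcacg
CEBPG, chr19:33374061-33374089: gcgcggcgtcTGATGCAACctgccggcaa
GARS1, chr7:30594834-30594862: ttacgcggcgATTTCATCAtgctccgagc
HERPUD1, chr16:56931955-56931983: gacgcggcggGTTGCATCAgcccgtgccc
CHAC1, chr15:40953251-40953279: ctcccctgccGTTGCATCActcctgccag
GOT1, chr10:99430805-99430833: aattgcattgGTTGCATCAttctcggcag
ITGB5, chr3:124901592-124901620: aggcatccagATTGCATCAacaccaaaac
SLC1A3, chr5:36596358-36596386: aggaaatgacTGATGCAAAgcagggttaa
Their responses were 1.29 for ASNS, 0.74 for CEBPG, 0.69 for GARS1, 0.64 for HERPUD1, 0.50 for CHAC1 and 0.43 for GOT1, an aspartate aminotransferase that was called narrowly (adjusted p = 0.0988). The integrin ITGB5 had -0.41 and the transporter SLC1A3 -0.49. The first base of the match lay at -68, -42, -34, -177, -210, -199, -192 and -220 from the annotated start in the order given.

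Over all genes called higher with a window (367 of 452, or 81.2%), 24 of 555 windows held the letters (4.32%), against 277 of 14220 windows of all genes tested (1.95%). Counted by gene, the shares were 6.27% and 2.66%. Among genes called lower, 9 of 224 windows held them (4.02%), or 6.25% by gene, values close to those of the genes called higher. Only 74.6% of the genes called lower had a window, so their share is void as a comparison with all genes. Of the other letters searched, on both strands and with none of them contained in another, the share of windows of higher genes against all windows was 2.52% and 2.87% for the CRE (TGACGTCA), 7.21% and 5.04% for the AP-1 site (TGANTCA), 10.5% and 10.3% for the cell cycle element CHR (TTTGAA), and 31.9% and 35.1% for the CCAAT box (CCAAT). These are shares of letters in fixed windows with no test, and no binding was measured.

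Further lists of the translation apparatus had 0 to 2 calls each, beside 5.40% of all genes called. None of 84 cytosolic ribosomal protein genes was called (median -0.00, range -0.34 to 0.38). Of 77 mitochondrial ones 1 was lower (1.3%, against 1.62% of all genes), MRPL12 (-0.37), which was not called without the block. Of 49 other translation factors, 2 were higher (4.08%, near the 3.78% of all genes). EIF4E3, a cap-binding protein, rose by 0.74 (SE 0.15), and EEF1A2, the elongation factor form of muscle and neurons, rose by 0.61 (SE 0.18) on top of a change of 0.73 in shCTRL (adjusted p = 0.021) and was not called without the block. None of 82 nuclear genes of oxidative phosphorylation (median -0.10), of 37 proteasome subunits (-0.05), of 25 hnRNP genes (-0.09), of 19 heat shock chaperones (-0.12) or of 5 metallothioneins (-0.22) was called.

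Falls were smaller than rises. The largest, RP11-644F5.10 (-1.75, SE 0.40, adjusted p = 0.0216), is a readthrough gene that overlaps BLOC1S1 and RDH5 on the same strand, so its reads cannot be told from theirs. Its 16 values ran from 3.99 to 6.13 with overlap between all groups, shCTRL changed by 0.98 while shEIF2B4 changed by -0.77, and the call was lost without week 3. MYH7B, a myosin heavy chain, was at 8.81, 8.89, 8.88 and 8.44 in shCTRL -DOX, 8.65, 8.998, 8.58 and 8.02 in shCTRL +DOX, 9.02, 9.02, 9.07 and 8.47 in shEIF2B4 -DOX, and 8.27, 7.96, 7.99 and 7.63 in shEIF2B4 +DOX. Week 4 was lowest in every group, so the induced shEIF2B4 libraries overlapped with shCTRL although each was the lowest of its own week. MYH7B fell by 0.74 on the log2 scale (SE 0.13, adjusted p = 0.00293), and it was not called without the block.

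CEMIP, which takes part in the breakdown of hyaluronan, was called lower at -0.70 (SE 0.17, adjusted p = 0.0331) with almost no change of its own. It was at 7.88, 8.00, 7.92 and 7.54 in shEIF2B4 -DOX and at 8.08, 7.68, 7.86 and 7.82 in shEIF2B4 +DOX, a change of 0.03. In shCTRL it went from 7.45, 7.77, 7.77 and 7.81 to 8.40, 8.08, 8.73 and 8.50, a change of 0.73 (adjusted p = 0.02), and the call was lost without week 3. IFITM2, an antiviral membrane protein whose annotation overlaps IFITM1, was similar in kind, with -0.30 in shEIF2B4 and 0.40 in shCTRL, and reads may be shared with its near-identical neighbours. Its shEIF2B4 -DOX and +DOX libraries overlapped (9.74 to 10.26 and 9.49 to 9.82), and it was not called without the block.

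The other 8 of the 12 largest falls lay between -0.67 and -0.58. They were the receptor HEG1 (-0.67), the basal keratin KRT5 (-0.66), the troponin TNNC1 (-0.63), the matrix protein TGFBI (-0.61), the chemokine CXCL14 (-0.60), the scavenger receptor SCARA3 (-0.60), the lipid receptor TREM2 (-0.59) and the matricellular protein SPARC (-0.58). Of these, HEG1, KRT5, CXCL14, SCARA3 and SPARC were also called without the block, and TNNC1, TGFBI and TREM2 were not. SCARA3 was the one of the 8 that was called with any week left out.

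Genes of cell division had the most lower calls of any list. Of 61 genes of mitosis and cytokinesis, 10 were lower (16.4%, against 1.62% of all genes) and 0 higher, all 61 responses were below 0, and the median was -0.26, against 0.0018 over all genes. The kinesin KIF20A, which acts in cytokinesis, was at 9.65, 9.73, 9.95 and 9.63 in shEIF2B4 -DOX and at 9.18, 9.07, 9.16 and 9.20 in shEIF2B4 +DOX. In shCTRL it was at 9.55, 9.63, 9.67 and 9.77 without and at 9.72, 9.32, 9.59 and 9.67 with doxycycline. The induced shEIF2B4 libraries were the 4 lowest of the 16, and KIF20A fell by 0.51 (SE 0.12, adjusted p = 0.0208), a call that was lost without week 3. MKI67, the proliferation marker, was at 10.11, 10.00, 10.25 and 10.05 in shEIF2B4 +DOX and fell by 0.50 (SE 0.14, adjusted p = 0.0564). Its level in week 3 was higher than in the other weeks in every group and reached 11.80 in shCTRL -DOX, and it was not called without the block. ANLN, a scaffold of the contractile ring, fell by 0.47 (SE 0.10), and CENPF, a kinetochore protein, fell by 0.42 (SE 0.10), both also called without the block, and ANLN also with any week left out.

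The count for this list depended on the fit, with 6 called without the block and 2, 2, 3 and 7 without weeks 4, 2, 1 and 3. It was 5 at a threshold of 0.05, 14 with median centring and 26 with weekly changes. With +DOX libraries only it was 57, and with no shCTRL correction 59. The list also moved in shCTRL, where its median change was -0.14. In these bulk lysates, fewer dividing cells and less of these mRNAs per cell cannot be told apart. Of 43 DNA replication factors, 3 were lower (6.98%, against 1.62% of all genes) and 0 higher (median -0.14). These were the helicase subunit MCM2 (-0.56), the licensing factor CDT1 (-0.44) and the DNA ligase LIG1 (-0.44), and none of them was called without the block. Of 57 genes in the histone list, 2 were lower, H2AC12 and H4C5 (both -0.42), each lost without the block, and histone genes are alike enough in sequence that reads can be split among them. Without week 1, 9 genes of this list were lower. The median of the list was -0.26, beside a median change of -0.34 in shCTRL. Of 23 G1 cyclins and inhibitors of cyclin-dependent kinases, 2 were higher (8.7%, against 3.78% of all genes). CDKN2B, the inhibitor p15, went from 5.85, 6.01, 5.83 and 6.003 to 6.59, 6.80, 6.79 and 6.75 in shEIF2B4, above the 5.75 to 6.08 of all shCTRL libraries, a rise of 0.89 (SE 0.12, adjusted p = 0.000124). The cyclin CCND2 rose by 0.43 (SE 0.12, adjusted p = 0.0532), a call that was lost without the block.

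WNT targets were of interest in this line because its truncated APC leaves beta-catenin signalling active. Of 24 measured target genes, 5 were lower and 2 higher (29.2% called, against 5.40% of all genes), with a median of -0.21 and 21 responses below 0. The feedback inhibitor AXIN2 was at 11.05, 11.05, 11.19 and 10.99 in shEIF2B4 -DOX and at 10.70, 10.72, 10.62 and 10.72 in shEIF2B4 +DOX, with 11.04 to 11.18 in shCTRL. The induced libraries lay below all of the other 12, and AXIN2 fell by 0.43 (SE 0.09, adjusted p = 0.0107), although the call was lost without week 2. Further inhibitors of the pathway, APCDD1 (-0.57, SE 0.10) and DKK4 (-0.49, SE 0.12), fell too, DKK4 not without the block. The growth factor FGF19 rose by 0.59 (SE 0.10). For this list, 2 were lower and 1 higher without the block, and 1 to 5 were lower with 1 week left out, the 1 being without week 2.

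Of 22 glycolysis genes, 2 were lower (9.09%, against 1.62% of all genes), the glucose transporters SLC2A1 (-0.43, SE 0.10) and SLC2A3 (-0.38, SE 0.10), with a median of -0.19 and 20 responses below 0, and 0 genes were called without week 4. Of 29 genes for cholesterol synthesis and uptake, 2 were lower (6.90%) and 0 were called without the block or without week 2, 3 or 4, and the median was -0.17. The fatty acid synthase FASN was one of them (-0.39, SE 0.10, adjusted p = 0.0461). Of 20 genes of the antioxidant factor NRF2, 2 were higher (10.0%, against 3.78% of all genes), SLC7A11 and the ferritin heavy chain FTH1 (0.66, SE 0.20, adjusted p = 0.074). FTH1 was not called without the block, and neither gene was called without week 2 or week 4.

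Genes of the endoplasmic reticulum and the unfolded protein response had 6 higher and 1 lower of 24 (29.2% called, against 5.40% of all genes). The median was 0.13. DNAJB9, a luminal co-chaperone, rose by 0.78 (SE 0.17), XBP1, the transcription factor of the IRE1 branch, rose by 0.55 (SE 0.13), and both calls were lost without week 2, as was that of WFS1. HERPUD1, which acts in the degradation of misfolded proteins, was at 9.64, 9.78, 9.65 and 9.51 in shEIF2B4 +DOX, above a highest value of 9.16 in the other 12 libraries, and rose by 0.64 (SE 0.12, adjusted p = 0.00414). WFS1, or wolframin, a membrane protein of this compartment, fell by 0.55 (SE 0.12). The count of higher genes was 3 without the block and 1 without week 2.

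Inflammatory lists did not move as a whole. Of 20 measured NF-kappaB subunits, feedback genes and chemokines, 3 were higher, namely LCN2, SLPI and the receptor TNFRSF9 (1.04, SE 0.11), but the median was -0.01 and 12 of the 20 were below 0. Of 32 interferon-stimulated genes, 2 were higher, HLA-B (0.62, SE 0.16) and HLA-C (0.37, SE 0.11), and 2 lower, IFITM2 and IFI6 (-0.36, SE 0.10), and the HLA genes are alike enough for reads to be shared. This list had 1 higher and 0 lower genes without the block, and 0 of either without week 4. Of 23 AP-1 and immediate early genes, 1 was called, KLF4 (0.37), but not without the block, with median centring, with 24 libraries in the fit, or without week 1, 3 or 4, and the 2 with the largest values, EGR1 (0.45) and KLF2 (0.42), were not. In the list of BCL2 family, death receptor and related cell death genes, 2 of 27 were higher (7.41%, against 3.78% of all genes). Both are inhibitors of cell death, MCL1 of the BCL2 family (0.47, SE 0.10) and XIAP (0.40, SE 0.11), which is of neither named class. XIAP was not called without the block or without week 1, 3 or 4. Of 24 autophagy genes, MAP1LC3B, which coats autophagosomes, was the 1 called (0.85, SE 0.16).

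Guidance and adhesion genes were split in direction. Of 39 ephrins, semaphorins and their receptors, 2 were higher and 3 lower. NRP1, the neuropilin that binds semaphorins and VEGF, went from 9.06, 9.39, 9.44 and 9.54 to 10.10, 10.04, 10.31 and 10.37 in shEIF2B4 and from 9.06, 9.23, 9.41 and 9.53 to 9.32, 8.64, 9.11 and 9.25 in shCTRL. Its induced shEIF2B4 libraries lay above all others, and it rose by 1.07 (SE 0.15, adjusted p = 0.000257). Its ligand SEMA3A fell by 0.48 (SE 0.12), a call that was lost without week 3 and without week 4, and the plexins PLXNA1 (-0.37) and PLXNB2 (-0.36) were lower but not without the block. Of 29 integrins, laminins and collagens, ITGB5 alone was called (-0.41, SE 0.10), from changes of -0.13 in shEIF2B4 and 0.28 in shCTRL, and the call was lost without week 2, 3 or 4. Among 54 lysosomal genes, LAMP3 was higher and the cathepsin CTSZ (-0.36) narrowly lower and not without the block, and among 415 zinc finger genes 9 were higher and 2 lower (2.65% called, against 5.40% of all genes), with ZNF554 (0.77) the highest. The zinc finger count was 5 higher and 0 lower without week 2, and 2 higher and 0 lower without week 4. Of the 645 called genes, 105 (16.3%) were in any of the 35 lists with a measured member, 68 higher and 37 lower, and these lists held 12.3% of all genes tested.

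**Figure D3:**
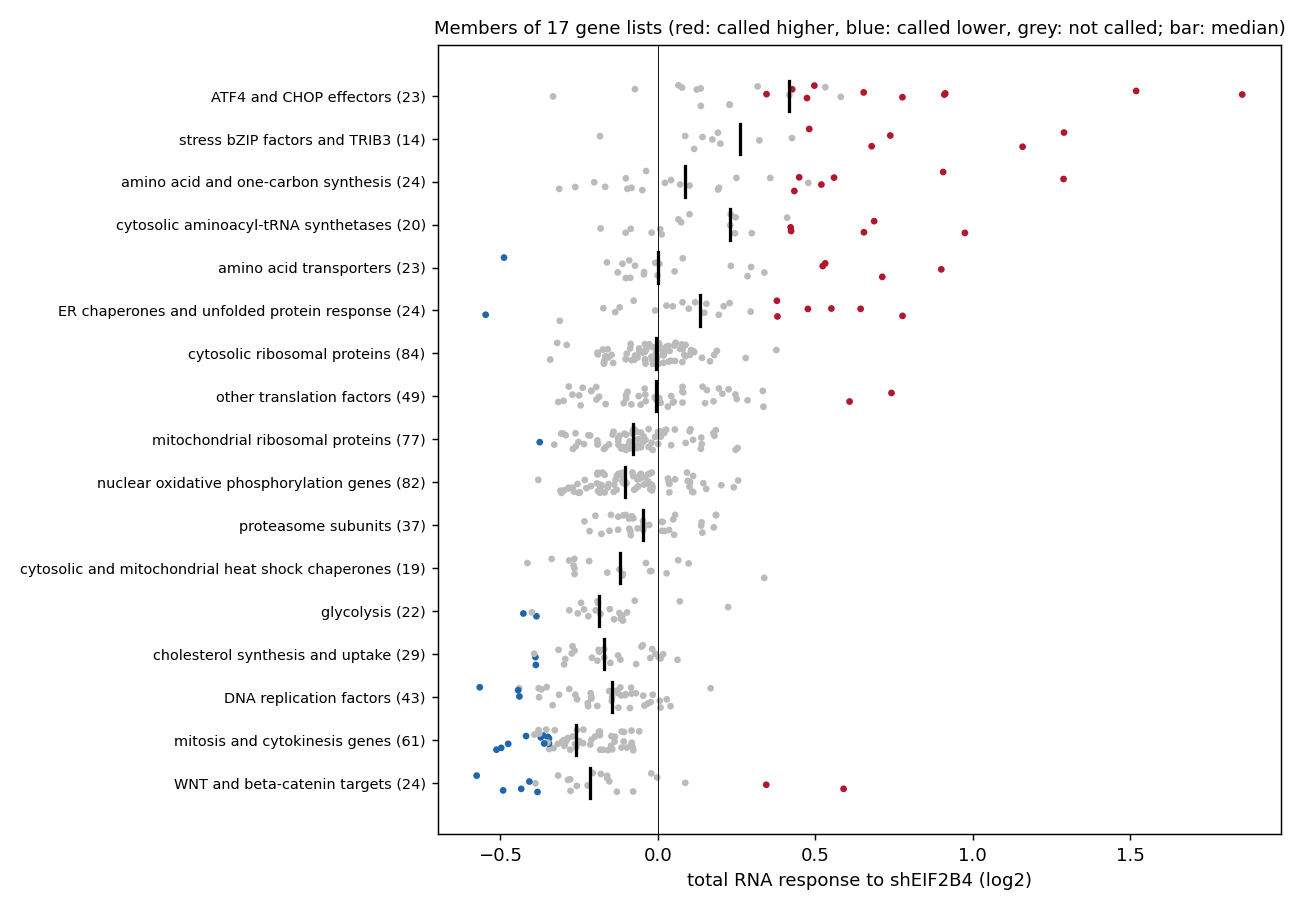
Response in total RNA (x axis, log2 scale) of each measured member of 17 gene lists (y axis, number of members in brackets), with called genes in red or blue, others in grey and a black bar at the median. The list of ATF4 and CHOP effectors has the highest median of those shown (0.42) and the list of mitosis and cytokinesis genes the lowest (-0.26).

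The response was next split into what each line did. Within shEIF2B4 alone, the change on induction was called for 4112 genes (34.4%), 2166 up (18.1%) and 1946 down (16.3%), and within shCTRL for 531 genes (4.44%), 271 up (2.27%) and 260 down (2.18%). Among the 452 genes called higher, the shEIF2B4 change was called in the same direction for 430, was not called for 22 and was opposite for 0. Their median change was 0.54 in shEIF2B4 and 0.06 in shCTRL, where 35 were called up, 15 down and 402 not. In 22 of them (4.87%) the shCTRL change made up more than 50% of the response. Among the 193 genes called lower, 167 were called down in shEIF2B4 and 26 were not called, and the medians were -0.38 and 0.03. In 28 of them (14.5%) the shCTRL change made up more than 50% of the response, as in CEMIP. These are splits of the same values and carry no test of their own. The shCTRL count was 9 without the block and ran from 3 without week 3 to 2452 without week 1.

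**Figure D4:**
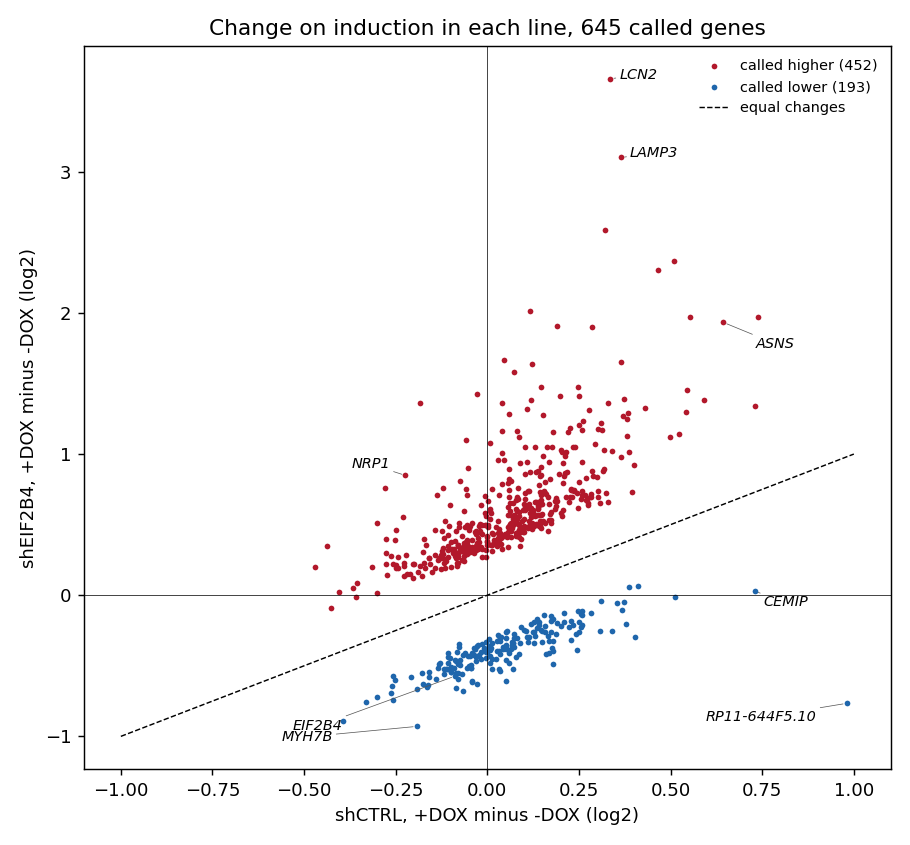
Change on induction in shEIF2B4 (y axis, log2 scale) against that in shCTRL (x axis, log2 scale) for the 645 called genes, with genes called higher in red and genes called lower in blue. The dashed line marks equal changes, so the distance above or below it is the response, and CEMIP lies at 0.03 in shEIF2B4 and 0.73 in shCTRL.

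Ribosome-protected fragments (RPFs), the pieces of mRNA held inside ribosomes, had been sequenced from the same lysates. They are a separate set of libraries but not separate cultures. For 405 of the 452 genes called higher an RPF response could be fitted in the same way. It had the same sign in 337 (83.2%), where 47.6% of all genes of the RPF table had a response above 0. It was called in the same direction in 103 (25.4%), against 1.84% of all genes in both tables called higher in RPFs, and in the opposite direction in 0. The median was 0.30 in RPFs and 0.48 in total RNA. Of the 189 genes called lower with an RPF value, 167 had the same sign (88.4%) and 21 were called lower (11.1%), against 0.877% of all, with medians of -0.26 and -0.41. Both sets were picked by their total RNA response, which can enlarge the total RNA medians. The medians therefore do not compare the size of the response between RPFs and total RNA. Over all 11145 genes of the RPF table, 307 were called (2.75%), 210 higher (1.88%) and 97 lower (0.870%), a count that was 36 without the block and ran from 43 without week 4 to 1615 without week 1. The RPF response of LCN2 was 4.19, of LAMP3 2.83, of TRIB3 1.85 and of DDIT3 1.73, each called, while that of CEBPG was 0.13 with an adjusted p of 0.8. ATF4, not called in total RNA, had an RPF response of 0.76 (adjusted p = 0.07).

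Whether the RPF and the total RNA response of a gene differed was tested on the log2 RPF value minus the log2 total RNA value of each lysate. Of 10836 genes, 10 were called (0.0923%), 7 with a larger RPF response (0.0646%) and 3 with a smaller one (0.0277%), with 1848 at an unadjusted p under 0.05, and 0 were called without the block or without week 2, 3 or 4, and 1417 without week 1. Of the genes called higher in total RNA, 6 were among the 10 and of those called lower 0. The membrane repair protein DYSF rose by 0.69 in total RNA and 2.03 in RPFs, a difference of 1.34 (SE 0.18, adjusted p = 0.00325). ATF5 (0.48 and 1.65), whose mRNA has upstream open reading frames, the nitric oxide synthase NOS3 (0.76 and 1.89) and the intermediate filament protein PRPH (1.12 and 2.23) also gained more in RPFs. In total RNA, DYSF (mean level 3.72), NOS3 (3.71) and PRPH (4.14) were weakly expressed, below the lower quartile of 6.35 over all genes. ATF5 was at 6.85. The regularised scale pulls the differences of weakly expressed genes towards 0, so these total RNA responses may be understated. Whether this made up the larger RPF responses was not tested. In the other direction, LRRC49 (0.71 in total RNA, -0.25 in RPFs, difference -0.96) and the cyclin CCNI (0.50 and -0.41, difference -0.91) rose in total RNA with RPF responses under 0 that were not called, and CCNI lost its total RNA call without week 2, 3 or 4.

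**Figure D5:**
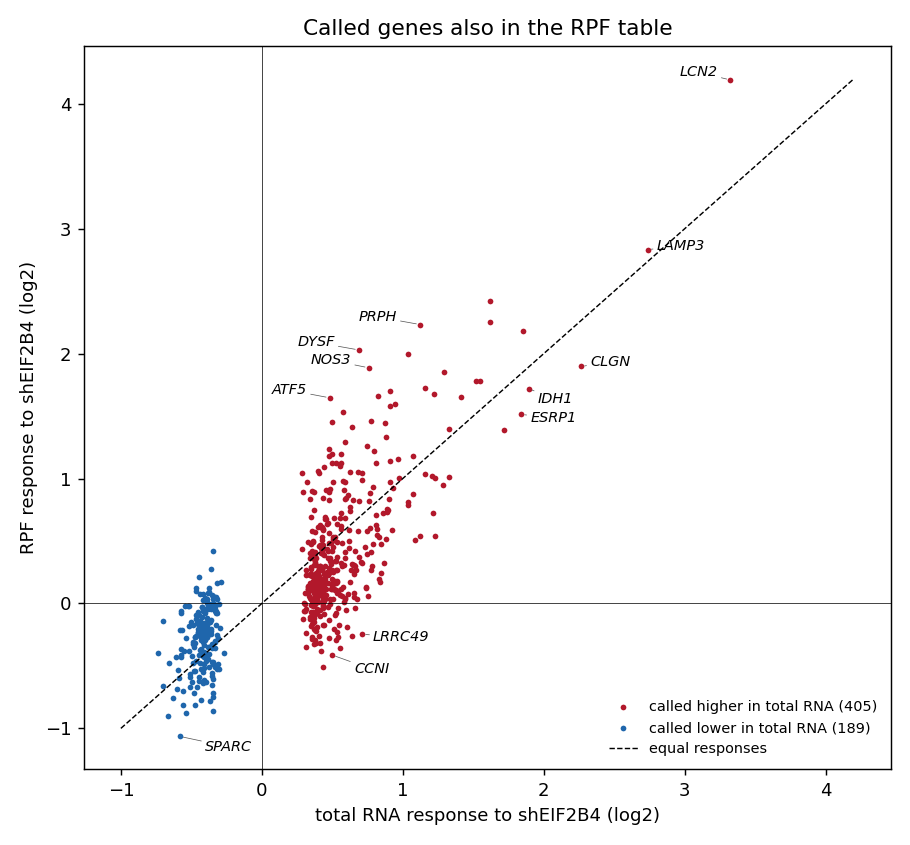
RPF response (y axis, log2 scale) against total RNA response (x axis, log2 scale) for the genes called in total RNA that are also in the RPF table, 405 called higher in red and 189 called lower in blue. The dashed line marks equal responses, DYSF, NOS3, ATF5 and PRPH lie above it, and LRRC49 and CCNI lie below it with RPF responses under 0.

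The hairpin against the alpha subunit, shEIF2B1, gave another knockdown with the same shCTRL libraries. Because these controls are shared, the 2 responses are given side by side and only their difference, from which shCTRL drops out, was tested over all 24 total RNA libraries. The genes called higher for shEIF2B4 had a median shEIF2B1 response of 0.34, and those called lower had -0.23. They were picked by their shEIF2B4 response, so these medians do not compare the size of the response between the hairpins. LCN2 was at 3.32 and 2.77, LAMP3 at 2.74 and 2.87, TRIB3 at 1.29 and 1.20, and ASNS at 1.29 and 0.83, in the order shEIF2B4 and shEIF2B1. The difference was called for 12 genes, 5 with the higher response in shEIF2B4 (0.0419%) and 7 with the lower (0.0586%), with 1528 at an unadjusted p under 0.05, and for 1 gene without the block and 0 to 2 with 1 week left out.

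UPP1 had the smallest adjusted p of the 12. It was at 6.91, 7.16, 7.15 and 7.15 in shEIF2B4 -DOX and at 8.35, 8.22, 8.66 and 8.60 in shEIF2B4 +DOX, with 6.61 to 7.12 in shCTRL, and its response was 1.55 against 0.81 for shEIF2B1 (difference 0.74, SE 0.11, adjusted p = 0.0145). NT5E, which releases adenosine from AMP outside the cell, went from between 7.05 and 7.37 to between 8.46 and 8.82, with shCTRL at 6.90 to 7.45, a response of 1.33 against 0.68 (difference 0.65, SE 0.11). The adaptor GULP1 had 0.92 against 0.28. The transcription factor MEF2A had 0.39 against -0.34, with 9.23, 9.39, 9.36 and 9.41 in shEIF2B4 +DOX above a highest value of 9.18 elsewhere in these 16 libraries. EIF2B1, the target of the second hairpin, had 0.01 against -0.67. On the other side, LGALS3BP, a secreted glycoprotein, had -0.47 against 0.26, with overlapping libraries of 8.60 to 9.09 in shEIF2B4 -DOX and 8.47 to 8.76 in shEIF2B4 +DOX. The adhesion molecule MCAM had -0.41 against 0.30, the phosphatase-related PLPPR4 -0.44 against 0.26, SPATA20 -0.28 against 0.36, and the axon guidance ligand SLIT1 0.31 against 0.90.

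The transcripts used for counting differed in composition between the groups of called genes, among the 97.8% of higher, 96.9% of lower and 97.1% of all genes that matched the annotation. The median GC content of the coding sequence was 47.8% in genes called higher, 55.9% in genes called lower and 51.9% over all genes. The median coding length was 1185, 1641 and 1296 bases in the same order, and the median length of the 3′ untranslated region was 1318, 797 and 802.5 bases. When a trend on coding GC content and length was removed from each library, a setting chosen after the data were seen, 677 genes were called, 422 higher and 255 lower, and 536 genes were called in both fits. The share of higher genes was then 62.3%. The mitosis and cytokinesis list had 25 lower genes with this setting. Whether composition had a part in any single response was not tested.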

How the data were processed

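SW480 cells with inducible shCTRL, shEIF2B4 or shEIF2B1 were lysed, and total RNA and RPF libraries were made from each lysate and sequenced on an Illumina NextSeq. According to the methods and the submitters' processing notes, adaptors were removed with cutadapt 1.18, reads were deduplicated and aligned with Bowtie2 to protein-coding GENCODE transcripts, and genes were counted with RSEM. The authors then applied DESeq2's regularised log transformation, so the deposited values are log2 values (2.84 to 19.9 in the 16 libraries), with no counts, and the read depth is unknown. Whether counting used strand is not given in the sources used here. Replicate 3 combined 2 sequencing runs.

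The total RNA table was fitted with limma 3.58.1 in R 4.3.3 (lmFit, eBayes with a mean-variance trend), with the replicate number as a block and line, DOX and their interaction as terms. The interaction was tested two-sided over all 11947 genes with Benjamini-Hochberg adjustment at 0.1, the threshold of the study. Per the treatment protocol in the labels, the experiment was done 4 times in weeks of their own. The replicate number was read as that week, which pairs the samples. Deviations from the group means correlated by 0.201 on average between libraries of the same week and by -0.0661 between weeks, and 13 of 24 same-week pairs were above 0.1. Deviations within a group cancel out, so the value between weeks largely follows from the same-week value and adds no evidence of its own. Replicates were separate weekly cultures of the same lines. RPF values, the log2 RPF minus log2 total RNA values, the shCTRL change and the difference between hairpins were fitted likewise. The test was tried on simulated data.

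The genes, the lists and the comparisons were chosen with earlier results of these data known. Named genes were the eIF2B subunits, the 12 called genes with the highest and the 12 with the lowest response among those with 1 sign in all 4 weeks, up to 4 called members per list with the largest response (the 2 largest by absolute response, as values, where fewer than 2 were called), and up to 5 called genes per direction for each difference. ATF4, SESN2, CHAC1, GOT1, SLC1A3 and KLF4 fall outside this rule and were named after their values were seen. Gene positions and overlaps are from GENCODE v29 (GRCh38) and promoter windows from RefSeq (GRCh38.p14). The hairpin sequences were not used here. Alternatives were no block, no trend, a filter on low values, median centring, all 24 libraries, no shCTRL correction, +DOX libraries only, weekly changes, a threshold of 0.05, and leaving out each week. Removal of a GC and length trend was added after the data were seen. The values of some called list members are not reported here.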

Additional observations from a re-analysis of the deposited data

Results flagged for a closer look

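In 28 genes whose values are given library by library, 9 of 112 groups of 4 held a value far from the other 3 by Dixon's test, and chance alone gives about 1 in 20. In shCTRL -DOX of week 3, LCN2 was at 5.89 (5.69 to 5.72 in the other weeks), IFITM2 at 10.68 (9.85 to 9.98) and MKI67 at 11.80 (10.80 to 10.94). In the same week, MKI67 was at 11.33 in shEIF2B4 -DOX (10.85 to 10.90) and NIBAN1 at 7.63 in shCTRL +DOX (7.13 to 7.20). Single values stood apart for CEBPG in shCTRL +DOX of week 2 (10.13 against 10.34 to 10.37), MYH7B in shEIF2B4 -DOX of week 4 (8.47 against 9.02 to 9.07), CEMIP in shCTRL -DOX of week 1 (7.45 against 7.77 to 7.81) and UPP1 in shEIF2B4 -DOX of week 1 (6.91 against 7.15 to 7.16). IFITM2, MKI67 and MYH7B were the genes among these whose call was lost without the block.

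The response differed between the 2 hairpins, by the test of the difference in limma, for 12 genes. The shEIF2B4 response minus the shEIF2B1 response was 0.74 for UPP1, 0.73 for MEF2A, 0.68 for EIF2B1, 0.65 for NT5E and 0.64 for GULP1. It was -0.45 for BECN1, -0.51 for HTRA1, -0.59 for SLIT1, -0.64 for SPATA20, -0.70 for PLPPR4, -0.71 for MCAM and -0.72 for LGALS3BP. BECN1 and HTRA1, an autophagy regulator and a secreted protease, were not called for shEIF2B4 alone (-0.29 and -0.07).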

How the results depend on the processing

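The 645 calls became 646 without the mean-variance trend, 559 without the lowest 25% of genes, 643 with median centring and 536 with 24 libraries in the fit. They became 349 with no replicate block, 374 at a threshold of 0.05, 1313 with weekly changes, 4112 with no shCTRL correction and 3583 (1302 higher, 2281 lower) with +DOX libraries only, which also holds any difference between the uninduced lines. Leaving out 1 week gave 217 to 496. EIF2B4 kept its direction, with -0.49 without the block (adjusted p = 0.129) and -0.49 at the stricter threshold (adjusted p = 0.0634), both no longer called, and with -0.53 to -0.42 when 1 week was left out.

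The difference between hairpins was called for 1 gene without the block, 24 with centring, 4 at 0.05 and 0 to 2 with a week left out (2 without week 2, 0 without each other week). The shCTRL change was called for 9, 414 and 41 genes in the same 3 settings, and for 2452 without week 1, 166 without week 2, 3 without week 3 and 12 without week 4. The RPF response was called for 36, 300 and 138 genes, and for 1615 without week 1, 77 without week 2, 66 without week 3 and 43 without week 4. The response of the RPF to RNA ratio was called for 0 genes without the block, 26 with centring and 8 at 0.05, and for 1417 without week 1 and 0 without each other week. The cause of these shifts was not tested.

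Of 102 called genes named by the rule besides EIF2B4, 31 lost the call without the block, 27 at 0.05, 18 with 24 libraries, 7 with the GC and length trend removed, 6 with no shCTRL correction, 3 without the mean-variance trend, 2 with centring and 0 with weekly changes. Without weeks 1 to 4, 13, 44, 29 and 49 lost it. The sign turned for CEMIP (0.0276) and for EIF2B1, which was not called (-0.20), with no shCTRL correction, and for DKK4 (0.0388) with +DOX libraries only. The deposited values carry no read counts, so the precision that depth gives to a single value is unknown, and responses of weakly expressed genes are understated on the regularised scale.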
